A study of Homo sapiens with 24 samples.

Results

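The transcripts of MCF10A cells of the MYC-transformed derivative PM were compared between a hairpin against CHD1, called B, and a hairpin against GFP. MCF10A is an established, non-tumorigenic human cell line from breast epithelium. The 8 libraries of this comparison were taken by their labels from a deposited table of raw counts with 24 libraries. The hairpin B group held 4 libraries of PM cells with the shCHD1 B hairpin, and the GFP group held 4 libraries of PM cells with the shGFP hairpin, its control. Both groups received doxycycline at 50 ng/ml for 72 h in medium with horse serum, epidermal growth factor, hydrocortisone, cholera toxin and insulin, so the drug, the medium and the MYC transformation were shared. The other 16 libraries held hairpin A against CHD1 in PM, and the same 3 hairpins in PE, the non-transformed derivative. They entered the estimate of the spread, and 2 of these groups were used to ask whether the changes differed between the hairpins and between the lines. Replicates are called biological in the labels, but it is not said how their cultures were kept apart, and the p-values therefore reflect only how far these libraries spread. The labels do not say whether a hairpin was carried by a pool of cells or a clone.

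CHD1 uses ATP to slide and space nucleosomes, is drawn to active promoters by methylated lysine 4 of histone H3, and works behind elongating RNA polymerase II. MYC is a transcription factor that drives growth and division genes. The transcription factor p53 turns on cell cycle inhibitors and metabolic genes under stress, whereas NF-kB turns on chemokines in epithelial cells, and both programmes are known to work in breast epithelium.

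Total counts per library were 30613332 to 74682699 with hairpin B and 27946174 to 80169431 with GFP. Within a group, counts of any pair of libraries differed by more than counting error, the chi-square over its degrees of freedom being 9.46 to 35.6, so no library was counted as a copy of another. The share of counts on mitochondrial ribosomal RNA was 0.424% to 0.488% with hairpin B and 0.216% to 0.341% with GFP. Replicate 3 of hairpin B stood apart. It had at least 1 count for 33137 genes, against 18380 to 24764 genes in the other 23 libraries. In it, 1915 genes had 10 or more counts while the other 3 libraries of its group had none, against 4 to 475 such genes in the other 23 libraries. These genes held 0.0432% of its counts, with a median of 13 counts each, and 788 of them were annotated as lncRNA, 670 as protein coding and 330 as pseudogenes. The 5 with the most counts were CNTN4 with 99, LOC100419985 with 89, BNIP3P12 with 73, LOC107984805 with 68 and LILRA2 with 65. Of the 1915 genes, 70 passed the filter on low counts and 5 were called. Several results that rest on this library are given below with and without it, but not every list count is.

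**Figure D1:**
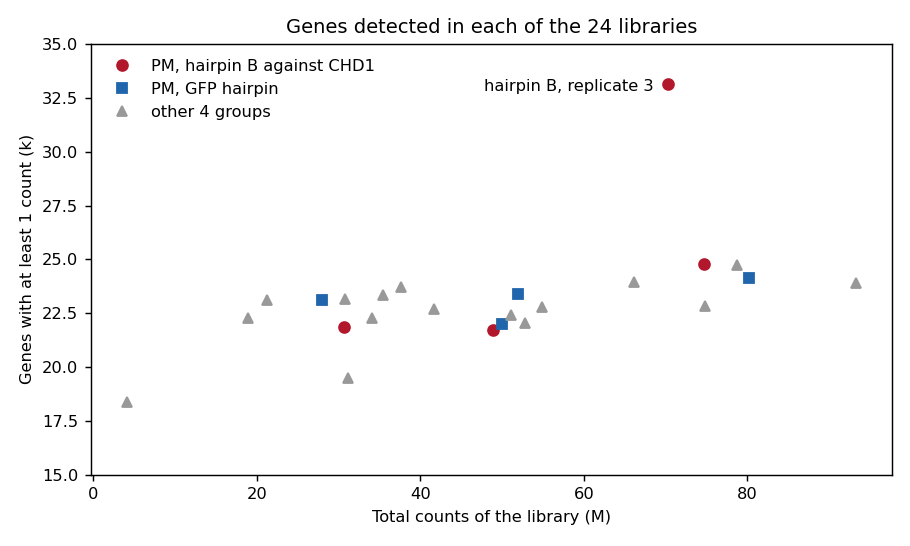
Genes with at least 1 count, in k (units of 1000 genes), against the total counts, in M (units of 1000000 counts), of each of the 24 libraries; each point is 1 library, coloured by group. Replicate 3 of hairpin B lies at 33137 genes, above the other 23 libraries, of which the highest has 24764.

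As a check of the cell type, KRT5, the keratin of basal epithelial cells, had a median of 1362 CPM with hairpin B and 1225 CPM with GFP (CPM is the count per 1000000 counts after TMM scaling). EPCAM, an epithelial adhesion protein, had medians of 91.9 CPM with hairpin B and 94.3 CPM with GFP, and CDH1, the epithelial cadherin, 26.1 CPM with hairpin B and 26 CPM with GFP. TP63, a transcription factor of basal cells, stayed at or below 0.243 CPM with hairpin B and 0.631 CPM with GFP, and KRT19, a luminal keratin, at or below 0.130 CPM with hairpin B and at 0 with GFP. The luminal keratins KRT8 and KRT18 were abundant, with medians of 299 and 244 CPM with hairpin B and of 291 and 249 CPM with GFP. Some basal markers moved: KRT14, KRT17 and LAMB3 were lower, as given below, and ITGA6, an integrin of basal cells, was higher (log2 0.57, adjusted p = 1.59e-06), at 65.6 to 75.9 CPM with hairpin B and 46.7 to 49.5 CPM with GFP. The 16 immune markers summed to 14.4 to 15.9 CPM with hairpin B and 14.4 to 19.9 CPM with GFP, mostly CD14. CD3D was at 0 in every library of both groups. Of the 4 immune markers tested, edgeR, DESeq2 and limma-voom each called 0, and 1 had an unadjusted p under 0.05. The 15 markers of fibroblasts and endothelium summed to 43 to 73.4 CPM with hairpin B and 23.5 to 48.8 CPM with GFP, with DCN the most abundant and with COL1A2 and TIE1 at 0 in the GFP libraries. Of these, COL1A1 alone was called, as higher. The 15 neural markers summed to 69.0 to 94.2 CPM with hairpin B and 79.6 to 94.0 CPM with GFP, mostly TUBB3, with MOG at 0 in both groups. SNAP25, of the synapse, was called higher (1.31 ± 0.37 on the log2 scale, SE), and MBP, of myelin, and GAD1, which makes GABA, lower (-0.71 ± 0.12 and -1.25 ± 0.36), the call of GAD1 being lost with limma-voom. GFAP, of astrocytes, had counts in replicate 3 of hairpin B alone, at 0.310 CPM. Its call as higher was lost without that library, with limma-voom, with the replicate number in the model and without GFP replicate 2, 3 or 4. In bulk libraries fewer cells of a type and less RNA per cell cannot be told apart, and the part of these cell types in the results was not tested.

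CHD1 itself, the target of the hairpin (chromosome 5, 98853985 to 98929007, GRCh38.p14), had 33.8, 28.6, 22.2 and 33.3 CPM with hairpin B, against 84.9, 95.3, 86.3 and 93.4 CPM with GFP. Every hairpin B library lay below every GFP library, a 3.06-fold lower level (log2 change -1.61 ± 0.10, SE, edgeR adjusted p = 1.2e-14). MYC had 386, 399, 378 and 406 CPM with hairpin B, against 505, 550.4, 530.1 and 488 CPM with GFP. The groups did not overlap here either, with a smaller drop (log2 change -0.40 ± 0.06, SE, edgeR adjusted p = 3.58e-06). The counts do not separate a MYC transgene from the cell's own gene, and whether the transforming construct is counted under MYC was not tested.

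Across the transcriptome, 5844 of 20820 tested genes (28.1%) passed an adjusted p of 0.05 between hairpin B and GFP in edgeR's quasi-likelihood test. Of all tested genes, 2837 (13.6%) were higher and 3007 (14.4%) lower with hairpin B. The median absolute log2 change of the called genes was 0.50, and the median over all tested genes was 0.01. In 6007 genes (28.9%) the 4 hairpin B and 4 GFP libraries did not overlap. Changes of at least 2-fold were less even: 912 genes (4.38%) were higher and 299 (1.44%) lower.

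The split differed with the level of expression. Among genes with means under 0.5 CPM in both groups, 157 were at least 2-fold higher and 30 lower, and without replicate 3 of hairpin B 77 were higher and 36 lower. Between 0.5 and 1 CPM the counts were 109 higher and 14 lower, and 68 and 17 without that library. Between 1 and 5 CPM lay the largest excess, 356 higher and 85 lower, and 293 and 85 without that library. Among genes averaging 5 CPM or more in either group, 290 genes were at least 2-fold higher and 170 lower, and 273 and 167 without it. Over all tested genes, leaving out replicate 3 left 721 rises and 305 falls of at least 2-fold, and 4928 called genes (2416 higher, 2512 lower). Of the 912 rises, 687 were still called and at least 2-fold without replicate 3, as were 242 of the 299 falls.

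**Figure D2:**
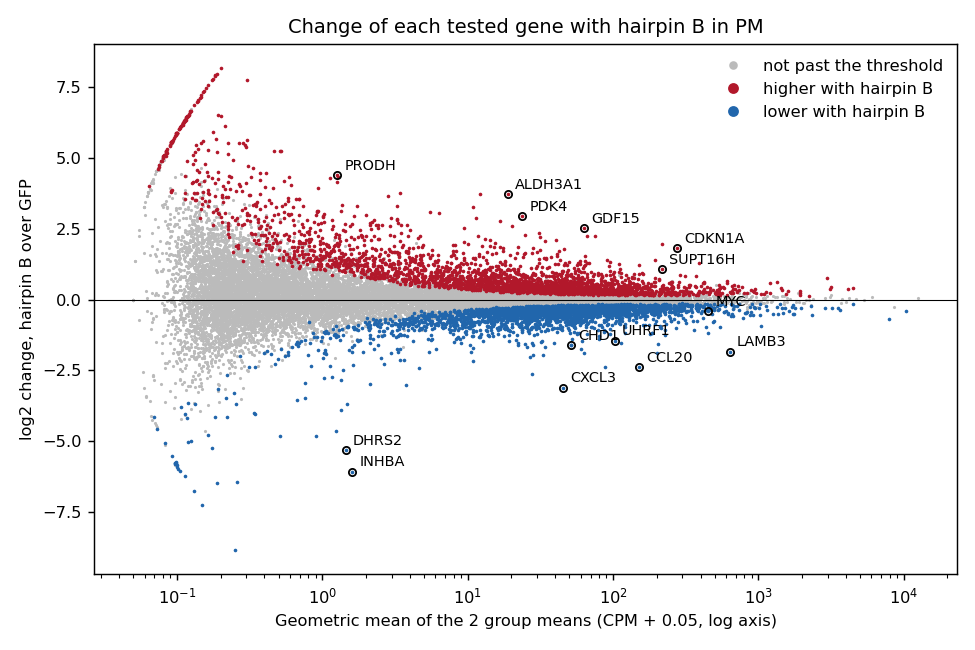
The log2 change (hairpin B over GFP) of each of the 20820 tested genes against its level (geometric mean of the 2 group means in CPM, log axis); points past an adjusted p of 0.05 are red where higher and blue where lower. The streak at the upper left holds genes with no count in any GFP library, and CHD1 lies at -1.61.

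Among protein-coding genes that averaged at least 5 CPM in either group, the 14 largest falls are given by role. Among them were secreted signals and receptors. INHBA, the beta A subunit of activin, had 0.130, 0, 0.229 and 0.292 CPM with hairpin B, against 8.76, 11.7, 17.7 and 9.96 CPM with GFP. FST, follistatin, which binds and blocks activin, had 0.390, 0.349, 0.486 and 0.292 CPM with hairpin B, against 5.59, 5.40, 5.24 and 3.86 CPM with GFP, and BMP2, a bone morphogenetic protein, had 1.06, 0.856, 1.35 and 1.92 CPM with hairpin B, against 11.4, 9.28, 13.4 and 8.07 CPM with GFP. The groups did not overlap in any of these 3 genes, and the log2 changes were -6.09 ± 0.60 for INHBA, -3.70 ± 0.42 for FST and -3.01 ± 0.29 for BMP2 (SE; edgeR adjusted p = 2.04e-07, 1.75e-08 and 1.66e-09). INHBA was nearly absent with hairpin B, with no count at all in replicate 2. DHRS2, a dehydrogenase of the short-chain family, had the second largest fall, with 0.0649, 0.159, 0.337 and 0.250 CPM with hairpin B, against 8.86, 10.5, 8.47 and 5.27 CPM with GFP (log2 change -5.32 ± 0.57, SE, edgeR adjusted p = 1.67e-08). Among receptors, IL13RA2, which binds interleukin 13, had 0.558, 1.11, 0.297 and 1.00 CPM with hairpin B, against 5.84, 7.34, 4.32 and 5.18 CPM with GFP (log2 -3.00, adjusted p = 2.07e-08). IL18R1, a chain of the interleukin 18 receptor, had 1.52, 1.46, 1.54 and 1.94 CPM with hairpin B, against 7.64, 7.07, 6.44 and 7.01 CPM with GFP (log2 -2.12, adjusted p = 5.99e-11). In both receptors the spread within each group was small beside the gap between the groups.

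The 14 falls also included keratins, a channel and genes of cell contact. KRT17, a keratin of basal and stressed epithelium, had 10.8, 8.18, 10.6 and 14.9 CPM with hairpin B, against 60.9, 41.4, 54.4 and 120.0 CPM with GFP (log2 -2.63, adjusted p = 9.15e-06). KRT14, its close relative in basal cells, had 1.00, 1.24, 0.580 and 1.92 CPM with hairpin B, against 4.07, 3.02, 4.30 and 11.0 CPM with GFP (log2 -2.28, adjusted p = 0.000845). Both were highest in GFP replicate 4. Reads of near-identical keratin genes and pseudogenes may have been split between them, since the treatment of such reads is not given in the sources used here. KCNK2, a potassium channel, averaged 2.00 ± 0.718 CPM with hairpin B and 10.6 ± 0.782 CPM with GFP (SD, n = 4 each; log2 -2.41, adjusted p = 3.07e-06). CNTNAP2, a neurexin-like adhesion protein, averaged 5.10 ± 1.48 CPM with hairpin B and 22.8 ± 4.79 CPM with GFP (log2 -2.17, adjusted p = 0.000192), and GJB2, the gap junction protein connexin 26, 1.69 ± 0.529 CPM with hairpin B and 7.51 ± 1.78 CPM with GFP (log2 -2.14, adjusted p = 8.68e-08). In each of these 5 genes every hairpin B library lay below every GFP library.

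The 14 largest rises are likewise given by role, metabolic and vascular genes before membrane genes. ALDH3A1, an aldehyde dehydrogenase of surface epithelia, had 78.2, 94.8, 57.5 and 42.1 CPM with hairpin B, against 6.13, 5.84, 4.84 and 4.11 CPM with GFP (log2 change 3.72 ± 0.32, SE, edgeR adjusted p = 3.29e-08). PDK4, a kinase that restrains pyruvate dehydrogenase, had 67.7, 64.4, 44.3 and 87.0 CPM with hairpin B, against 8.22, 7.34, 6.15 and 12.5 CPM with GFP (log2 2.95, adjusted p = 1.61e-08). PRODH, proline dehydrogenase and a p53 target, had 5.32, 5.45, 8.11 and 3.19 CPM with hairpin B, against 0.0360, 0.274, 0.570 and 0.0610 CPM with GFP (log2 4.40, adjusted p = 0.00014). All 4 hairpin B libraries lay above all 4 GFP libraries in each, and for PRODH the change was 5.36 without GFP replicate 3, which had the highest of 4 low values. EDN2, the vasoconstrictor endothelin 2, had 41.5, 37.3, 59.8 and 38.8 CPM with hairpin B, against 1.95, 2.17, 3.22 and 5.73 CPM with GFP (log2 3.74, adjusted p = 2.84e-06). MYLK, the myosin light chain kinase of smooth muscle and myoepithelial cells, had 10.3, 11.8, 8.98 and 8.99 CPM with hairpin B, against 0.973, 1.88, 0.730 and 0.488 CPM with GFP (log2 3.31, adjusted p = 8.42e-11). TP53INP1, a p53-induced nuclear protein, had 32.1, 32.9, 39.2 and 18.4 CPM with hairpin B, against 4.14, 3.64, 5.47 and 3.39 CPM with GFP (log2 2.87, adjusted p = 2.98e-09). Again the groups were apart, by 13.3-fold for EDN2, 9.89-fold for MYLK and 7.30-fold for TP53INP1.

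The other rises were mostly in membrane and matrix genes. CLCA2, a regulator of chloride channels in squamous epithelium and a p53 target, had 12.1, 14.1, 15.8 and 6.47 CPM with hairpin B, against 0.829, 0.372, 0.718 and 1.69 CPM with GFP (log2 3.75, adjusted p = 7.8e-08). ANK1, the ankyrin of red cell membranes, averaged 5.42 ± 1.32 CPM with hairpin B and 0.255 ± 0.155 CPM with GFP (log2 4.32, adjusted p = 4.6e-10), and PLCH2, a phospholipase C, 33.7 ± 10.9 CPM with hairpin B and 3.43 ± 1.12 CPM with GFP (log2 3.26, adjusted p = 4.07e-07). SULF2, an extracellular sulfatase that trims heparan sulfate, averaged 15.9 ± 4.12 CPM with hairpin B and 1.83 ± 0.283 CPM with GFP (log2 3.10, adjusted p = 1.36e-13). The 4 GFP values of SULF2 lay between 1.62 and 2.24 CPM. LY6D, a surface marker of keratinocytes, rose by 2.98, and LAT2, an adaptor protein of immune receptor signalling, by 3.30 on the log2 scale (adjusted p = 8.52e-08 and 1.19e-08). TREM1, a receptor that amplifies inflammation, had 11.1, 7.64, 12.2 and 41.8 CPM with hairpin B, against 1.04, 0.411, 1.76 and 5.43 CPM with GFP (log2 3.05, adjusted p = 0.0102). IFITM10, a transmembrane protein, had 5.55, 3.49, 5.99 and 16.3 CPM with hairpin B, against 0.793, 0.274, 0.570 and 2.66 CPM with GFP (log2 2.87, adjusted p = 0.00287). Replicate 4 was the highest library of both groups for these genes. Without hairpin B replicate 4 the changes were 2.26 for TREM1 and 2.25 for IFITM10, and without GFP replicate 4 they were 4.02 and 3.90.

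**Figure D3:**
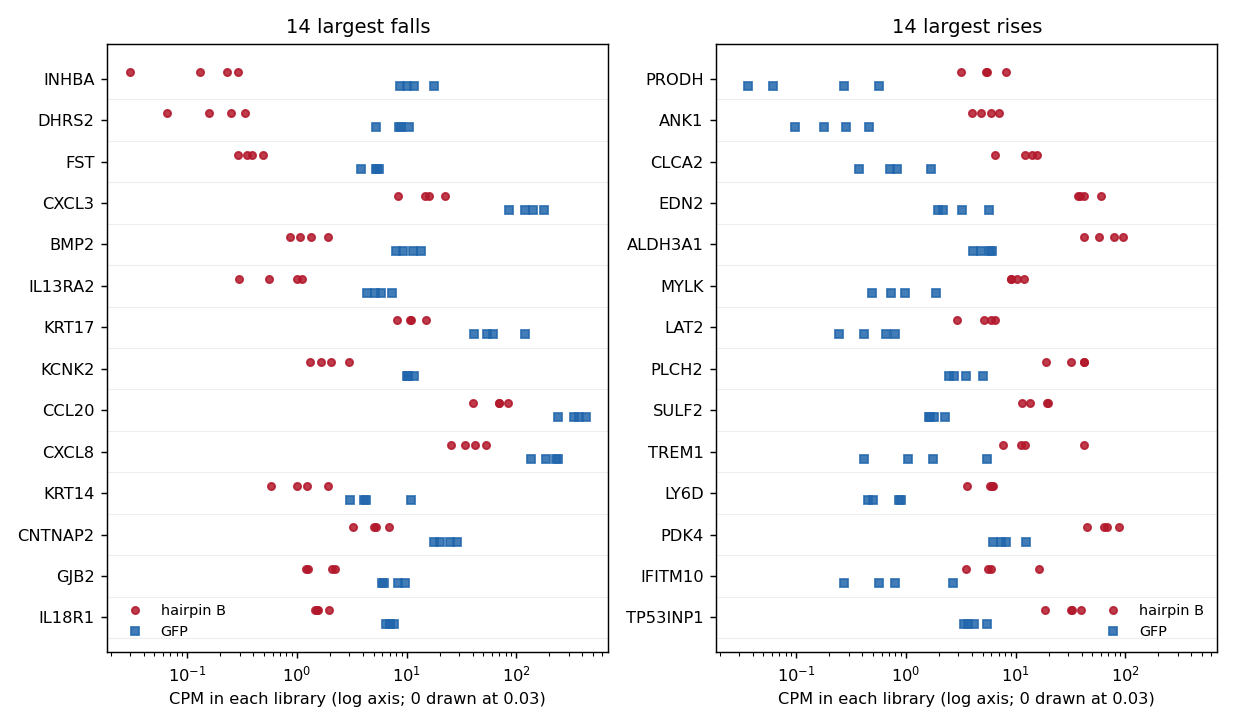
CPM (log axis) of the 14 largest falls (left) and the 14 largest rises (right) in each of the 4 hairpin B libraries (red circles, upper row of each gene) and the 4 GFP libraries (blue squares, lower row). No gene has overlapping groups; a value of 0, as for INHBA in hairpin B replicate 2, is drawn at 0.03.

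Gene lists were read against the shares over all tested genes, 13.6% higher and 14.4% lower. Calls were more frequent among stronger genes. At means of 50 CPM or more in either group, 952 of 4726 genes were higher and 1447 lower. At 5 CPM or more the counts were 2136 and 2822 of 11273, and under 0.5 CPM in both groups 157 and 30 of 4731. Lists of strong genes can therefore exceed the shares over all genes by their level alone. The p53 targets stood at 25 higher and 2 lower of 30 (median log2 0.62), and 23 were higher without replicate 3 of hairpin B. CDKN1A, the cyclin-dependent kinase inhibitor p21, had 542, 550.4, 631 and 343 CPM with hairpin B, against 160.5, 145, 159.7 and 125 CPM with GFP (log2 change 1.81 ± 0.16, SE, edgeR adjusted p = 5.38e-08). GDF15, a stress-induced cytokine of the TGF-beta family, had 153, 158, 205 and 88.7 CPM with hairpin B, against 29.7, 28.9, 32.2 and 14.7 CPM with GFP (log2 2.52, adjusted p = 1.19e-06). In both genes replicate 4 gave the lowest value of each group, without overlap. FDXR, ferredoxin reductase of mitochondria, had 103, 105, 141 and 88.3 CPM with hairpin B, against 39.7, 36.1, 43.3 and 31.3 CPM with GFP (log2 1.54, adjusted p = 1.59e-06), and MDM2, the ubiquitin ligase that degrades p53, averaged 173 ± 43.5 CPM with hairpin B and 121 ± 15.7 CPM with GFP (log2 0.52, adjusted p = 0.00308). The call of MDM2, a gene named after its values were seen, was lost when the 2 compared groups were fitted alone. The 2 lower members were PMAIP1, the apoptosis protein NOXA, at log2 -0.62, and TNFRSF10A, a death receptor, at -0.41.

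Genes of DNA copying went the other way: of the DNA replication and G1/S list, 32 of 40 tested members were lower and 2 higher (median -0.45). UHRF1, which carries DNA methylation through replication, had 60.1, 64.2, 56.4 and 68.7 CPM with hairpin B, against 163, 178, 159 and 180.3 CPM with GFP (log2 change -1.45 ± 0.11, SE, edgeR adjusted p = 4.46e-11). GINS3, a part of the replicative helicase, had 11.6, 13.7, 11.2 and 15.5 CPM with hairpin B, against 28, 29.5, 25 and 27.2 CPM with GFP (log2 -1.08, adjusted p = 1.93e-08), and PRIM1, the primase subunit, had 15.0, 16.2, 17.2 and 17.2 CPM with hairpin B, against 33.4, 39.2, 34.7 and 29.9 CPM with GFP (log2 -1.07, adjusted p = 1.92e-08). The libraries of each group were close to one another in all 3, with no overlap. POLE2, a subunit of DNA polymerase epsilon, fell by 0.77 on the log2 scale (adjusted p = 0.000167). The members called higher were PCNA, the sliding clamp of replication and also a p53 target, at 108, 141, 121 and 124 CPM with hairpin B, against 78.9, 81.8, 68.0 and 79.6 CPM with GFP (log2 0.68, adjusted p = 2.55e-08), and RPA1, which coats single-stranded DNA, at a log2 change of 0.20 that lost its call without hairpin B replicate 4 or GFP replicate 1. Without GFP replicate 1 a single member was called higher.

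For G2/M and mitosis, 26 of 40 tested members were lower and 4 higher (median -0.32). ESPL1, the protease separase, had 37.4, 29.5, 29.3 and 29.8 CPM with hairpin B, against 61.4, 59.7, 67.1 and 61.5 CPM with GFP, and CCNA2, cyclin A2, had 75.4, 77.6, 62.2 and 73.3 CPM with hairpin B, against 134, 145, 137 and 123 CPM with GFP. Neither gene's groups overlapped (log2 -0.99, adjusted p = 1.08e-09 for ESPL1, and log2 -0.90, adjusted p = 1.42e-10 for CCNA2). TPX2, a spindle assembly factor, averaged 144 ± 11.9 CPM with hairpin B and 259 ± 5.50 CPM with GFP (log2 -0.85, adjusted p = 7.46e-12). NUF2, of the kinetochore's NDC80 complex, was called higher at 36.2 ± 3.00 CPM with hairpin B and 23.8 ± 2.13 CPM with GFP (log2 0.60, adjusted p = 3.69e-06). The other 3 higher members, NDC80, CCNB2 and KIF20A, changed by 0.28, 0.23 and 0.16, and the higher calls numbered 1 without hairpin B replicate 1 or 2 and 2 without GFP replicate 2. Of the homologous recombination and Fanconi list, 17 of 34 were lower and 0 higher (median -0.35). They included XRCC2 (-0.85 ± 0.11, SE) and BRCA2 (-0.81 ± 0.13), both of which act in strand exchange repair.

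Among G1 cyclins, CDKs and their inhibitors, 9 of 20 were lower and 3 higher (median -0.24). CCND1, cyclin D1, had 153, 170.3, 152 and 196 CPM with hairpin B, against 237, 256, 215 and 272 CPM with GFP (log2 -0.55, adjusted p = 1.4e-06), and E2F2, an activator of S phase genes, fell by 0.65 (adjusted p = 0.0014). CCNE2, cyclin E2, passed at -0.53 but lost its call with DESeq2 size factors and without each of 6 of the 8 libraries. CDKN1C, the inhibitor p57, had 31.5, 19.8, 17.3 and 40.4 CPM with hairpin B, against 9.66, 5.27, 11.7 and 20.3 CPM with GFP (log2 1.21, adjusted p = 0.00839), with GFP replicate 4 above hairpin B replicates 2 and 3, and its call was lost when the 2 groups were fitted alone. Replication-dependent histones, whose messages normally lack a poly(A) tail, gave 7 higher and 0 lower of 41 tested, and 5 higher without replicate 3. H1-2, a linker histone, averaged 9.28 ± 1.35 CPM with hairpin B and 4.10 ± 0.697 CPM with GFP (log2 1.19, adjusted p = 7.88e-05), and H2BC5 averaged 4.70 ± 1.51 CPM with hairpin B and 1.96 ± 0.311 CPM with GFP (log2 1.26, adjusted p = 7.75e-05). The libraries were poly(A) selected, so these values cover only part of the histone messages.

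**Figure D4:**
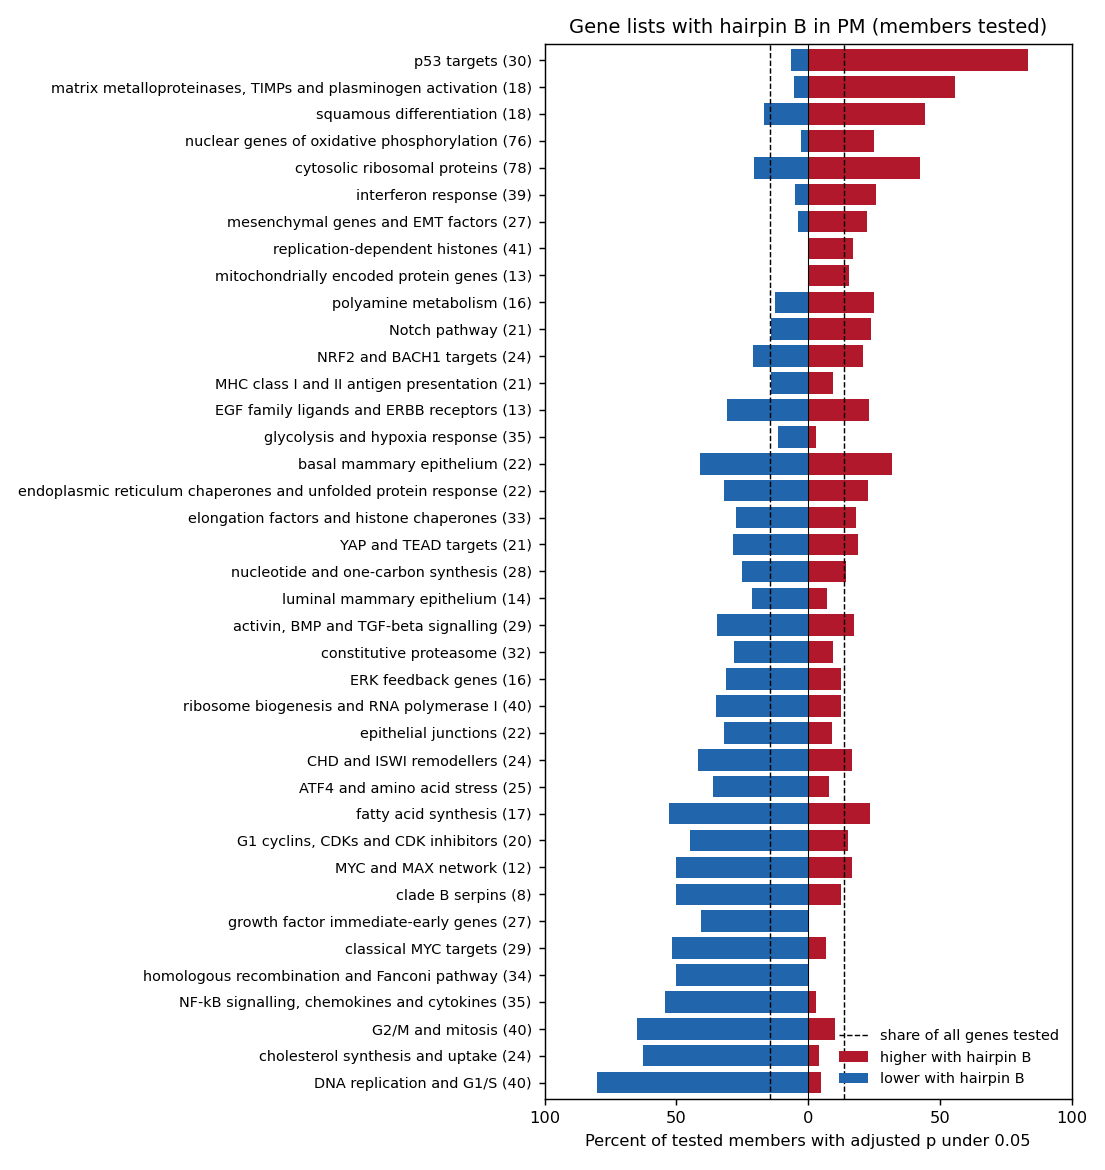
Percent of the tested members of each of 39 gene lists that were called higher (right, red) or lower (left, blue) with hairpin B; the number tested is in parentheses and the dashed lines mark the shares over all tested genes, 13.6% higher and 14.4% lower. The p53 targets lie at the top (25 of 30 higher), and DNA replication and G1/S at the bottom (32 of 40 lower). The dashed shares cover genes of every level, and calls were more frequent among stronger genes.

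Chemokines and other NF-kB genes were lower as a group: of 35 tested, 19 were lower and 1 higher (median -0.62), and 10 of the falls were at least 2-fold. Their promoters are shown because several carry the same short NF-kB site. The sequences below run 5′ to 3′ on the gene's strand, cover 250 bases before to 50 after the RefSeq start on GRCh38.p14, and have the letters GGAATTTCC in capitals where they occur. CXCL3 lies on the minus strand at chr4:74038640-74038939, CXCL8 on the plus strand at chr4:73740319-73740618, and CCL20 on the plus strand at chr2:227813592-227813891.
CXCL3: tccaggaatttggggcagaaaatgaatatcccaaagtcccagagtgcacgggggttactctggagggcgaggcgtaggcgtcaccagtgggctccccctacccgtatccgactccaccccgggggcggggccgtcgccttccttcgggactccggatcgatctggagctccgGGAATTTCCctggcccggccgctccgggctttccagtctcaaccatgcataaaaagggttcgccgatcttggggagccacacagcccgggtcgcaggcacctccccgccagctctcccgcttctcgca
CXCL8: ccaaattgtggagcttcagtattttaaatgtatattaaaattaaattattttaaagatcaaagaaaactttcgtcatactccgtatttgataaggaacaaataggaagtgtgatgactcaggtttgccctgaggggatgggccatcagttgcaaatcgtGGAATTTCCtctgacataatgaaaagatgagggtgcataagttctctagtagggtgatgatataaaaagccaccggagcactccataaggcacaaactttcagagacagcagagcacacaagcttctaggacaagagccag
CCL20: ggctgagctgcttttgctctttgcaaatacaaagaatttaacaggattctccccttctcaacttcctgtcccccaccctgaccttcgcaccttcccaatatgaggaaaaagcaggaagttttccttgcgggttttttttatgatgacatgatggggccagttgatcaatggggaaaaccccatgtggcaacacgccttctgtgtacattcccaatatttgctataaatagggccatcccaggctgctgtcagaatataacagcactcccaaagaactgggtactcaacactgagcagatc

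The letters GGAATTTCC begin 78 bases before the start of CXCL3 and 91 before that of CXCL8. They do not occur in the CCL20 window on either strand. No other form of the NF-kB site was searched, so a window without these letters may still hold such a site. Searched on both strands, GGAATTTCC occurred in 162 of 35116 promoter windows (0.461%). Of the 38 listed genes 30 had a window, and 11 of these held the letters. Of the 10 that were also tested, 9 were lower and 0 higher, and of the 19 tested without the letters 8 were lower. The motif was chosen with the values known, so these counts describe the list and are no test. CXCL1, CXCL2, CXCL3, CXCL5 and CXCL8 are related genes close together on chromosome 4. All of them hold the letters 77 to 91 bases before the start, so they are not separate instances. No share of lower calls is given for windows with the letters outside the list, and a part of the motif in the falls was not tested.

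CXCL3, which draws neutrophils, had 16.1, 22.2, 14.8 and 8.33 CPM with hairpin B, against 119.9, 179.8, 142 and 86.2 CPM with GFP (log2 change -3.11 ± 0.32, SE, edgeR adjusted p = 4.25e-07). CXCL8, interleukin 8, had 33.8, 52.9, 42 and 25.5 CPM with hairpin B, against 187, 238, 232 and 135 CPM with GFP (log2 -2.37, adjusted p = 5.48e-08). CCL20, which draws dendritic and T cells, had 69.9, 83.1, 69.8 and 40.5 CPM with hairpin B, against 336, 428, 371 and 239 CPM with GFP (log2 -2.38, adjusted p = 3.75e-07). Replicate 4 was the lowest library of both groups for all 3 genes and replicate 2 the highest, and the groups did not overlap. A pair of close relatives, named after their values were seen, was also lower. CXCL1 averaged 105 ± 29.3 CPM with hairpin B and 385 ± 62.4 CPM with GFP, and CXCL2 32.6 ± 10.7 CPM with hairpin B and 110.0 ± 22.4 CPM with GFP (SD, n = 4 each; log2 -1.88 and -1.76). LCN2, the iron-binding lipocalin 2, averaged 0.415 ± 0.176 CPM with hairpin B and 2.87 ± 1.28 CPM with GFP (log2 -2.75, adjusted p = 0.00397). CXCL5 was near 0 in both groups, at 0, 0.127, 0.0135 and 0 CPM with hairpin B, against 0.324, 0.470, 1.03 and 0.244 CPM with GFP, and its call was lost without GFP replicate 3 (log2 -4.14, -3.51 without it and -6.12 without hairpin B replicate 2). The single member called higher was CSF1, the growth factor of macrophages (0.49 ± 0.15), which was not called without hairpin B replicate 3 or without GFP replicate 1 or 2.

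The activin, BMP and TGF-beta list held 10 lower and 5 higher of 29 tested (median -0.17). Besides INHBA, FST and BMP2, the ligand BMP4 was low, at 0.130, 0, 0.0674 and 0 CPM with hairpin B, against 0.757, 0.431, 0.409 and 0.691 CPM with GFP (log2 -3.31 ± 0.99, and -4.24 without hairpin B replicate 1). The higher side included ID3, a BMP target (0.99 ± 0.23), the ligand TGFB1 (0.30 ± 0.08), the receptor ACVR1 (0.34 ± 0.11) and FSTL1, a follistatin-like protein (0.30 ± 0.07). Members of this list therefore moved in both directions. Growth factor immediate-early genes, switched on within minutes of ERK signalling, were lower in 11 of 27 and higher in 0 (median -0.53). In this list and the recombination list none was called higher, and in the histone list none lower, by edgeR, DESeq2 or limma-voom, and 0 had an unadjusted p under 0.05 in that direction. EGR1, a transcription factor of this class, had 131, 134, 90.9 and 120.0 CPM with hairpin B, against 329, 277, 231 and 262 CPM with GFP (log2 -1.21, adjusted p = 0.01), and CCN1, a matrix signalling protein that YAP also controls, had 116, 155, 125 and 101 CPM with hairpin B, against 250.4, 394, 251 and 218 CPM with GFP (log2 -1.17, adjusted p = 0.00206). Both had higher values in all GFP libraries, as did IER2 (-0.91 ± 0.12) and MAFF (-0.90 ± 0.11).

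ERK feedback genes gave 2 higher and 5 lower of 16 tested (median -0.23). The lower ones were the phosphatases DUSP2 (-1.22 ± 0.18) and DUSP7 (-0.54 ± 0.10), the inhibitors SPRY4 (-0.56 ± 0.09) and SPRED2 (-0.53 ± 0.09), and the transcription factor ETV4 (-0.35 ± 0.11), which was not called without hairpin B replicate 4 or GFP replicate 2. The higher ones were SPRED1 (0.37 ± 0.08) and PHLDA1 (0.48 ± 0.08). EGF family ligands and receptors gave 3 higher and 4 lower of 13 tested (median -0.30), with NRG4 at 5.76 ± 1.81 CPM with hairpin B and 10.8 ± 1.02 CPM with GFP (log2 -0.90, adjusted p = 0.000587). The majority of that list depended on the scaling, with 4 higher and 2 lower under DESeq2 size factors or library sizes alone, and the lower count was 1 without hairpin B replicate 1 and 2 without hairpin B replicate 3 or GFP replicate 2 or 4. HBEGF, a ligand of the EGF receptor, passed at -0.50 ± 0.18 and lost its call under both of those scalings and without each of 5 libraries. NRG2 was near 0 in both groups and not called without hairpin B replicate 1. YAP and TEAD targets gave 4 higher and 6 lower of 21 tested (median -0.16), with MYOF, a membrane repair protein, at 222 ± 7.69 CPM with hairpin B and 117 ± 3.63 CPM with GFP (log2 0.92, adjusted p = 1.61e-13).

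Basal epithelial genes split in both directions, 7 higher and 9 lower of 22 tested (median -0.06). LAMB3, a chain of laminin 332, which anchors basal cells, had 315, 329, 387 and 309 CPM with hairpin B, against 1105, 1300.0, 1328 and 1077 CPM with GFP (log2 change -1.84 ± 0.12, SE, edgeR adjusted p = 1.55e-10). Its groups did not overlap. Clade B serpins gave 1 higher and 4 lower of 8 tested (median -0.34). SERPINB2, an inhibitor of urokinase, averaged 0.0626 ± 0.0765 CPM with hairpin B and 2.26 ± 1.06 CPM with GFP (log2 -4.84, adjusted p = 0.000303), with 0 counts in hairpin B replicates 2 and 4, and -5.64 without replicate 1. SERPINB3 averaged 0.325 ± 0.175 CPM with hairpin B and 4.71 ± 2.10 CPM with GFP (log2 -3.89, adjusted p = 3.32e-05), and SERPINB1, which inhibits neutrophil proteases, changed by -0.43 ± 0.11. SERPINB4, a near-identical copy of SERPINB3, lost its call with limma-voom and when any one of 5 libraries was left out, and the reads of this pair may have been split. SERPINB6 alone was higher (0.18 ± 0.07), and was not called when any one of 4 libraries was left out.

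Matrix proteases and the plasminogen system gave 10 higher and 1 lower of 18 tested (median 0.67). MMP2, a gelatinase, had 48.6, 43.2, 42.5 and 65.0 CPM with hairpin B, against 4.86, 4.45, 7.95 and 15.3 CPM with GFP (log2 2.59, adjusted p = 1.77e-05). PLAU, urokinase, had 16.4, 24, 23.9 and 14.9 CPM with hairpin B, against 3.03, 4.56, 6.29 and 6.26 CPM with GFP (log2 1.95, adjusted p = 5.16e-07). The groups were apart in both, as in MMP19 (2.63 ± 0.20). The member called lower, MMP15 (-0.46 ± 0.17), lost its call when any one of 6 libraries was left out. It also lost it under library sizes alone, without a filter and with the 2 groups fitted alone. Mesenchymal genes gave 6 higher and 1 lower of 27 tested (median 0.21), among them COL1A1, the collagen of connective tissue, at 13.1 ± 3.03 CPM with hairpin B and 5.66 ± 0.411 CPM with GFP (log2 1.22, adjusted p = 2.2e-06), and S100A4, a calcium-binding protein of motile cells, at 20.9 ± 3.48 CPM with hairpin B and 11.3 ± 1.61 CPM with GFP (log2 0.89, adjusted p = 3.12e-06). COL5A1 was at 0 in 3 of 4 GFP libraries and at most 1.11 CPM with hairpin B. The lower member was CDH2, the neural cadherin (-0.24 ± 0.07), not called without replicate 3 of hairpin B. The summed fibroblast and endothelial markers were also higher, at 43 to 73.4 CPM with hairpin B and 23.5 to 48.8 CPM with GFP, and their part in these changes was not tested.

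Squamous differentiation genes were 8 higher and 3 lower of 18 tested, and 7 and 2 without replicate 3. The list's median log2 change was 1.64, 0.72 with a gene that had no count in a group set to its bound, and 0.34 without replicate 3, so the median rested on that library. Besides CLCA2 and LY6D, ABCA12, a lipid transporter of skin, had 45.5, 49.2, 50.5 and 30.2 CPM with hairpin B, against 7.03, 4.66, 7.30 and 6.38 CPM with GFP (log2 2.79, adjusted p = 8.15e-06), and HES2, a transcriptional repressor, had 4.60, 6.12, 7.89 and 3.76 CPM with hairpin B, against 1.19, 1.19, 0.458 and 1.10 CPM with GFP (log2 2.53, adjusted p = 9.92e-08). The lower members were ELF3, an epithelial transcription factor (-2.29 ± 0.52), KRT10, the keratin of differentiating skin (-0.46 ± 0.08), and LY6K (-0.27 ± 0.10). The call of LY6K was lost with DESeq2 size factors, with library sizes alone, with DESeq2's Wald test and when any one of 6 libraries was left out. Epithelial junction genes gave 2 higher and 7 lower of 22 tested (median -0.09), and 4 lower without GFP replicate 4. MAL2, which sorts proteins to the apical membrane, had 67.7, 70.5, 64.5 and 65.4 CPM with hairpin B, against 147, 135, 134 and 129 CPM with GFP (log2 -1.02, adjusted p = 0.0035), and the desmosome cadherins DSG2 and DSC3 moved apart (-0.79 ± 0.08 and 0.52 ± 0.14). Luminal genes gave 1 higher and 3 lower of 14 tested (median 0.03), and 0 and 3 without replicate 3 of hairpin B (median -0.08). FOXA1, a factor of the luminal lineage, averaged 4.07 ± 0.594 CPM with hairpin B and 6.62 ± 0.520 CPM with GFP (log2 -0.70, adjusted p = 0.0096), and the lone higher member, CD24, lost its call when any one of 6 libraries was left out. Under DESeq2 size factors or library sizes alone 3 luminal genes were called higher.

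Cholesterol synthesis was lower: 15 of 24 tested members fell and 1 rose (median -0.29). IDI1, isopentenyl diphosphate isomerase, had 27.6, 29.3, 28 and 32.3 CPM with hairpin B, against 93.7, 91.6, 88.8 and 81.8 CPM with GFP (log2 change -1.60 ± 0.08, SE, edgeR adjusted p = 1.22e-16). HMGCS1, the cytosolic HMG-CoA synthase, had 63.6, 61.2, 52.4 and 62.5 CPM with hairpin B, against 123, 118, 104 and 107 CPM with GFP (log2 -0.92, adjusted p = 6.72e-10). Neither gene's groups overlapped, and the libraries of a group lay within a narrow range. TM7SF2, a sterol reductase, was the member that rose (1.60 ± 0.27), and a second was called higher without hairpin B replicate 3 or GFP replicate 1, or under library sizes alone. Fatty acid genes gave 4 higher and 9 lower of 17 tested (median -0.20). ACSL4, which activates arachidonic acid, averaged 233 ± 25.2 CPM with hairpin B and 98.7 ± 9.40 CPM with GFP (log2 1.24, adjusted p = 6.94e-13), whereas ACSL3, its relative on lipid droplets, averaged 87.4 ± 9.36 CPM with hairpin B and 144 ± 9.64 CPM with GFP (log2 -0.72, adjusted p = 9.97e-10). ACACB, the acetyl-CoA carboxylase at the mitochondrial membrane, averaged 5.54 ± 0.802 CPM with hairpin B and 1.75 ± 0.294 CPM with GFP (log2 1.67, adjusted p = 5.07e-05), and the elongase ELOVL7 fell by 0.71 (adjusted p = 0.00248).

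Nuclear genes of oxidative phosphorylation gave 19 higher and 2 lower of 76 (median 0.10), all by less than 2-fold, and 30 higher under library sizes alone. ATP5PD, of ATP synthase, averaged 176 ± 15.4 CPM with hairpin B and 121 ± 6.53 CPM with GFP (log2 0.54, adjusted p = 4.87e-07), and UQCR10 and UQCRB of complex III and NDUFB3 of complex I changed by 0.47 ± 0.08, 0.45 ± 0.06 and 0.41 ± 0.08 (SE). The lower members were ATP5MC3 (-0.21 ± 0.06) and UQCR11 (-0.22 ± 0.07), and UQCR11 was not called without hairpin B replicate 1 or 2 or GFP replicate 1. Of 13 mitochondrially encoded protein genes 2 were called higher (15.4%, median 0.04), close to the 13.6% of all tested genes. They were ND1 and COX3, at 0.43 ± 0.12 and 0.37 ± 0.11, and COX3 lost its call without hairpin B replicate 4 or GFP replicate 3. The share of mitochondrial ribosomal RNA was higher with hairpin B in the same libraries, 0.424% to 0.488% against 0.216% to 0.341% with GFP. Cytosolic ribosomal proteins gave 33 higher and 16 lower of 78 tested (median 0.11), with the lower count at 10 without hairpin B replicate 1 or GFP replicate 2. RPL10 had 363, 357, 362 and 469.6 CPM with hairpin B, against 794, 776, 729 and 768 CPM with GFP (log2 -0.98, adjusted p = 2.23e-13), and RPL24 306, 339, 369 and 404 CPM with hairpin B, against 212, 224, 227 and 260.1 CPM with GFP (log2 0.62, adjusted p = 8.43e-08). RPSA and RPS29 changed by -0.50 ± 0.05 and -0.48 ± 0.07. Their many near-identical pseudogenes leave single values of these genes uncertain.

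The MYC and MAX network gave 2 higher and 6 lower of 12 tested (median -0.27). MAX, the partner of MYC, averaged 34.9 ± 4.52 CPM with hairpin B and 53.1 ± 2.74 CPM with GFP (log2 -0.61, adjusted p = 7.66e-06). MXD4, an antagonist that competes for MAX, averaged 222 ± 32 CPM with hairpin B and 114 ± 24.6 CPM with GFP (log2 0.95, adjusted p = 1.65e-05), and MXD3, of the same family, 10.0 ± 0.994 CPM with hairpin B and 17.1 ± 2.69 CPM with GFP (log2 -0.77, adjusted p = 2.37e-05). MLXIPL, the carbohydrate response factor ChREBP, was low but higher with hairpin B, at 1.15 ± 0.290 CPM with hairpin B and 0.240 ± 0.0941 CPM with GFP (log2 2.25, adjusted p = 0.00137). Classical MYC targets gave 15 lower and 2 higher of 29 (median -0.17), with 9 lower without GFP replicate 2 and 11 lower without hairpin B replicate 3. PPAT, which opens purine synthesis, had 34.3, 36.5, 31 and 45.1 CPM with hairpin B, against 77.7, 90.4, 84.8 and 89.5 CPM with GFP (log2 -1.22, adjusted p = 1.2e-12), and TFRC, the transferrin receptor, had 516, 557, 452 and 557 CPM with hairpin B, against 693, 797, 715 and 708 CPM with GFP (log2 -0.49, adjusted p = 1.24e-06). ODC1, ornithine decarboxylase, fell by 0.52 (adjusted p = 0.00275). HSPE1, a mitochondrial chaperonin (0.61 ± 0.08), and PHB2, a prohibitin (0.20 ± 0.06), were the higher members. Ribosome biogenesis genes gave 5 higher and 14 lower of 40 tested (median -0.04), and 8 or 9 lower without hairpin B replicate 1 or 3 or GFP replicate 2, and the median was 0.01 under library sizes alone. NOLC1, a nucleolar phosphoprotein, averaged 288 ± 34.6 CPM with hairpin B and 489.5 ± 21.2 CPM with GFP (log2 -0.76, adjusted p = 5.79e-10), and POLR1B, a subunit of RNA polymerase I, 143 ± 4.89 CPM with hairpin B and 101 ± 11.0 CPM with GFP (log2 0.50, adjusted p = 3.71e-06).

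Other chromatin remodellers of the CHD and ISWI families gave 10 lower, CHD1 included, and 4 higher of 24 tested (median -0.05). Without replicate 3 of hairpin B the counts were 8 lower and 3 higher (median 0.01). CHD2, the closest relative of CHD1, named after its values were seen, had 114, 103, 111 and 118 CPM with hairpin B, against 77.9, 74.4, 90.1 and 80.9 CPM with GFP (log2 0.46, adjusted p = 2.29e-06). SMARCA1, an ISWI ATPase, averaged 6.21 ± 0.903 CPM with hairpin B and 3.11 ± 0.543 CPM with GFP (log2 0.99, adjusted p = 1.33e-06), and BAZ2A, a subunit that silences ribosomal DNA, 76.7 ± 7.44 CPM with hairpin B and 138 ± 6.80 CPM with GFP (log2 -0.84, adjusted p = 2.01e-11). CECR2 was near 0 and not called without replicate 3 of hairpin B. Elongation factors and histone chaperones gave 6 higher and 9 lower of 33 tested (median -0.00), a median that was 0.02 with DESeq2 size factors and 0.04 with library sizes alone. SUPT16H, of the FACT complex that opens nucleosomes for polymerase and is known to bind CHD1, had 311, 343, 294 and 311 CPM with hairpin B, against 153, 154, 136 and 158 CPM with GFP (log2 change 1.06 ± 0.07, SE, edgeR adjusted p = 7.69e-14). ASF1A, a chaperone of histones H3 and H4, had 20.5, 20.9, 19.9 and 17.9 CPM with hairpin B, against 8.97, 9.95, 7.56 and 11.2 CPM with GFP (log2 1.07, adjusted p = 1.62e-07), and TCEA2, an elongation factor, 25.2, 28.2, 26.3 and 26.9 CPM with hairpin B, against 14.5, 12.0, 12.9 and 12.6 CPM with GFP (log2 1.04, adjusted p = 2.48e-08). The 3 genes were higher in every hairpin B library than in any GFP library, whereas CHAF1B, of the chaperone that assembles new chromatin at replication forks, fell (-0.64 ± 0.12).

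Interferon response genes gave 10 higher and 2 lower of 39 tested (median 0.12). GBP3, a guanylate-binding protein, had 16.6, 19.5, 21.6 and 14.9 CPM with hairpin B, against 5.62, 6.03, 7.66 and 6.87 CPM with GFP (log2 1.46, adjusted p = 3.14e-10), and IFIT1, an antiviral RNA-binding protein, averaged 3.29 ± 0.559 CPM with hairpin B and 1.16 ± 0.287 CPM with GFP (log2 1.49, adjusted p = 8.88e-05). IFI27 was low, at 1.46 ± 0.832 CPM with hairpin B and 0.191 ± 0.115 CPM with GFP (log2 3.02, adjusted p = 0.00195), and OAS3 and DDX60 were the lower members (-0.28 ± 0.07 and -0.46 ± 0.14), DDX60 not being called without hairpin B replicate 4 or GFP replicate 3. Antigen presentation genes gave 2 higher (9.5%) and 3 lower (14.3%) of 21 tested (median 0.12), near or under the 13.6% and 14.4% of all tested genes. The peptide transporter subunits went in opposite directions, TAP1 at 0.71 ± 0.14 and TAP2 at -0.53 ± 0.08, and HLA-F, a class I heavy chain, was at -1.25 ± 0.18. Notch genes gave 5 higher and 3 lower of 21 tested (median 0.08), with the receptor NOTCH3 at 5.87 ± 1.54 CPM with hairpin B and 0.827 ± 0.207 CPM with GFP (log2 2.82, adjusted p = 2.27e-09) and the inhibitor NRARP at 5.38 ± 0.203 CPM with hairpin B and 13.5 ± 3.03 CPM with GFP (log2 -1.33, adjusted p = 6.46e-08). NRF2 and BACH1 targets gave 5 higher and 5 lower of 24 tested (median 0.04), led by HMOX1, heme oxygenase 1, at 13.9 ± 1.93 CPM with hairpin B and 4.64 ± 1.42 CPM with GFP (log2 1.59, adjusted p = 0.000157), and between 1 and 7 were lower when single libraries were left out and 3 under either other scaling. OSGIN1 and FTH1 were among the lower members (-0.74 ± 0.23 and -0.52 ± 0.08), OSGIN1 not being called without GFP replicate 2.

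Endoplasmic reticulum chaperones gave 5 higher and 7 lower of 22 tested (median -0.18), with HSPA5, the chaperone BiP, at -0.55 ± 0.08 and DNAJB9 at -1.02 ± 0.16. DNAJC3 and EDEM1 were among the higher members (0.52 ± 0.09 and 0.47 ± 0.09). ATF4 and amino acid stress genes gave 2 higher and 9 lower of 25 tested (median -0.17), with PYCR1, which makes proline, at -0.74 ± 0.09 and the amino acid transporter SLC7A5 at -0.66 ± 0.11, and 1 higher without hairpin B replicate 3 or GFP replicate 4. SESN2 was among the higher members (0.67 ± 0.10). Glycolysis and hypoxia genes gave 1 higher (2.9%) and 4 lower (11.4%) of 35 tested (median 0.02), under the 13.6% and 14.4% of all tested genes. VEGFA, the vascular growth factor, was higher (0.67 ± 0.12), and the enzymes HK2 (-0.45 ± 0.10), LDHB (-0.42 ± 0.05), ENO1 (-0.30 ± 0.07) and CA12 (-0.48 ± 0.10) were lower. Of this list 3 were called higher without hairpin B replicate 2 or GFP replicate 4 and under DESeq2 size factors or library sizes alone, and 2 without GFP replicate 3. Polyamine genes gave 4 higher and 2 lower of 16 tested (median 0.13, and 0.05 without replicate 3 of hairpin B). SMOX, spermine oxidase, changed by 1.27 ± 0.26 and OAZ1, which inhibits ODC1, by 0.59 ± 0.06. Nucleotide and one-carbon genes gave 4 higher and 7 lower of 28 tested (median -0.08), with RRM2, a ribonucleotide reductase subunit, at -0.74 ± 0.09. Proteasome subunits gave 3 higher (9.4%) and 9 lower (28.1%) of 32 tested (median -0.07), against 13.6% and 14.4% of all tested genes. Calls were more frequent among stronger genes, as given above, and a part of the level in this count was not tested. PSMB2 changed by -0.49 ± 0.07 and PSMA7 by 0.42 ± 0.06, and 5 members were higher under library sizes alone.

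Hairpin B and hairpin A were compared directly in PM, without the GFP libraries that both comparisons with the control share. CHD1 did not differ past the threshold, at 29.5 ± 5.40 CPM with hairpin B, 31 ± 2.76 CPM with hairpin A and 90.0 ± 5.18 CPM with GFP (SD, n = 4 each; B minus A log2 -0.08 ± 0.10, SE, adjusted p = 0.648). Even so, 5468 of 20820 genes (26.3%) differed, 2651 (12.7%) higher and 2817 (13.5%) lower with hairpin B. MYC was lower with hairpin B, at 392 ± 12.3 CPM with hairpin B, 564 ± 28.2 CPM with hairpin A and 518 ± 27.4 CPM with GFP (log2 -0.52 ± 0.06, adjusted p = 3.75e-08). Under library sizes alone, 58.6% of the calls were higher with hairpin B, against 48.5% under TMM scaling.

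Among protein-coding genes called between hairpin B and GFP that averaged at least 5 CPM in either of them, the 6 largest differences towards hairpin B were in EDN2, MUC13, NOTCH3, ACACB, PRODH and ALDH3A1. EDN2 averaged 44.3 ± 10.5 CPM with hairpin B, 2.2 ± 0.771 CPM with hairpin A and 3.27 ± 1.73 CPM with GFP (B minus A log2 4.31 ± 0.47). MUC13, a membrane mucin, averaged 8.27 ± 2.98 CPM with hairpin B, 0.549 ± 0.198 CPM with hairpin A and 1.25 ± 0.308 CPM with GFP (3.89 ± 0.51). ALDH3A1 averaged 68.1 ± 23.1 CPM with hairpin B, 11.1 ± 3.60 CPM with hairpin A and 5.23 ± 0.928 CPM with GFP (2.64 ± 0.30). EDN2 and MUC13 had their lowest means with hairpin A. The differences were 2.96 ± 0.29 for NOTCH3, 2.70 ± 0.32 for ACACB and 2.70 ± 0.72 for PRODH. Towards hairpin A the largest were ENTPD2, GJB2, CNTNAP2, SLC25A23, MRPS21 and NR2F6. ENTPD2, an enzyme that breaks down ATP outside the cell, averaged 3.34 ± 1.10 CPM with hairpin B, 13.8 ± 2.77 CPM with hairpin A and 9.12 ± 0.927 CPM with GFP (-2.02 ± 0.25). MRPS21, a mitochondrial ribosomal protein, averaged 51.0 ± 5.91 CPM with hairpin B, 172 ± 6.82 CPM with hairpin A and 125 ± 10.5 CPM with GFP (-1.75 ± 0.09), and NR2F6, an orphan nuclear receptor, 36.6 ± 4.62 CPM with hairpin B, 113 ± 16.6 CPM with hairpin A and 101 ± 7.68 CPM with GFP (-1.62 ± 0.10). The adjusted p of these 12 genes ranged up to 0.00661 (PRODH). SLC25A23, a calcium-regulated carrier of the mitochondrial membrane, averaged 13.0 ± 4.52 CPM with hairpin B, 44 ± 2.01 CPM with hairpin A and 26.4 ± 0.966 CPM with GFP (-1.76 ± 0.16), GJB2 1.69 ± 0.529 CPM with hairpin B, 6.72 ± 1.44 CPM with hairpin A and 7.51 ± 1.78 CPM with GFP (-1.97 ± 0.26), and CNTNAP2 5.10 ± 1.48 CPM with hairpin B, 19.3 ± 3.66 CPM with hairpin A and 22.8 ± 4.79 CPM with GFP (-1.94 ± 0.38).

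By list, hairpin B was lower than hairpin A in 33 of 40 ribosome biogenesis genes and higher in 2, and lower in 22 of 29 classical MYC targets and higher in 1. It was lower in 15 of 24 cholesterol genes by edgeR, led in the comparison with GFP by IDI1, which averaged 29.3 ± 2.14 CPM with hairpin B, 73.5 ± 4.90 CPM with hairpin A and 89.0 ± 5.20 CPM with GFP (B minus A log2 -1.33 ± 0.08). For cholesterol genes higher with hairpin B, edgeR and DESeq2 called 0 and limma-voom 1, with 1 at an unadjusted p under 0.05, and under library sizes alone 1 was higher and 12 lower. Proteasome subunits were lower in 15 of 32 and higher in 0, or 8 lower under library sizes alone. For the 0 proteasome genes higher and the 0 basal genes lower, DESeq2 and limma-voom also called 0, with 0 at an unadjusted p under 0.05. In the other direction, 19 of 39 interferon genes were higher and 1 lower, as were 10 of 22 basal genes with 0 lower, and 16 of 35 chemokine and NF-kB genes with 5 lower. CXCL8 averaged 38.6 ± 11.7 CPM with hairpin B, 20.1 ± 2.01 CPM with hairpin A and 198 ± 47.9 CPM with GFP (0.93 ± 0.21), and LAMB3 335 ± 35.4 CPM with hairpin B, 229 ± 22.8 CPM with hairpin A and 1202 ± 129.8 CPM with GFP (0.55 ± 0.12). Both were below GFP with either hairpin. The p53 targets differed in 8 higher and 3 lower of 30, and CDKN1A averaged 517 ± 123 CPM with hairpin B, 475 ± 43.8 CPM with hairpin A and 148 ± 16.5 CPM with GFP (0.12 ± 0.16, adjusted p = 0.653). UHRF1 averaged 62.3 ± 5.30 CPM with hairpin B, 127 ± 6.51 CPM with hairpin A and 170.1 ± 10.7 CPM with GFP (-1.03 ± 0.11).

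The effect of hairpin B was also set against its effect in PE, where the hairpin B and GFP libraries are other samples. The difference of the 2 effects, PM minus PE, passed the threshold in 510 of 20820 genes (2.45%), 306 (1.47%) higher and 204 (0.98%) lower. Under library sizes alone 71.5% of the calls were higher, against 60.0% under TMM scaling. With the replicate number added to the model as a block, 1003 genes passed, 481 higher and 522 lower, so the count and its split depended on that choice. For CHD1 the log2 changes were -1.61 in PM and -1.48 in PE, and the difference was not past the threshold (-0.13 ± 0.14, SE, adjusted p = 0.807). For MYC they were -0.40 in PM and -0.00 in PE (-0.40 ± 0.09, SE, adjusted p = 0.00546). In PE, MYC averaged 275 ± 24 CPM with hairpin B and 275 ± 17.7 CPM with GFP.

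By the same rule of level and call, the 6 genes with the largest differences towards PM were LAD1, COL17A1, MAL2, KRT14, CNTNAP2 and ALDH3A1. LAD1, a filament of the basement membrane zone, changed by -0.55 in PM and -5.44 in PE, and COL17A1, a hemidesmosome collagen, by 1.00 in PM and -3.64 in PE. In both, the call in PM itself was lost without most single libraries and without a filter, while the difference held in every fit. The PM call of LAD1 was also lost with DESeq2's Wald test and under library sizes alone. That of COL17A1 was also lost with the compared groups fitted alone and with the replicate number as a block. In PE, LAD1 averaged 0.123 ± 0.134 CPM with hairpin B and 4.73 ± 2.02 CPM with GFP, and COL17A1 2.75 ± 1.19 CPM with hairpin B and 35.1 ± 11.3 CPM with GFP. MAL2 changed by -1.02 in PM and -5.60 in PE, and KRT14 by -2.28 in PM and -6.22 in PE. CNTNAP2 changed by -2.17 in PM and -5.46 in PE, but the difference was not past the threshold with limma-voom, with these 4 groups fitted alone or without PE hairpin B replicate 4. ALDH3A1 had a log2 change of 3.72 in PM, against one of 0.64 in PE that was not called, with PE levels of 40.1 ± 12.6 CPM with hairpin B and 25.9 ± 4.05 CPM with GFP. In the other 5 genes the change in PM was smaller in size than that in PE.

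Towards PE the largest differences were in IP6K3, PLAC8, NRG1, SMARCA1, SPOCK1 and MAP2. IP6K3, an inositol phosphate kinase, changed by 1.41 in PM and 4.41 in PE, and PLAC8, a cysteine-rich protein, by 2.08 in PM and 4.96 in PE. NRG1, a ligand of ERBB receptors, changed by 0.93 in PM and 2.92 in PE, SMARCA1 by 0.99 in PM and 2.82 in PE and SPOCK1, a matrix proteoglycan, by 0.99 in PM and 2.68 in PE. These 5 rose in both lines and by more in PE, though the rise of NRG1 in PM lost its call without hairpin B replicate 3 or GFP replicate 3 or 4, and its difference with limma-voom. MAP2, a microtubule protein of neurons, averaged 31.7 ± 3.19 CPM with hairpin B and 59.0 ± 6.28 CPM with GFP in PM, and 64.8 ± 8.55 CPM with hairpin B and 39.7 ± 3.01 CPM with GFP in PE, so it changed by -0.90 in PM and 0.69 in PE. By list, 9 of 22 basal genes and 6 of 22 junction genes had a higher log2 change in PM than in PE by edgeR, and 5 of 21 YAP and TEAD targets a lower one. Of the basal genes edgeR, DESeq2 and limma-voom called 0 lower, with 1 at an unadjusted p under 0.05, and of the junction genes edgeR and DESeq2 called 0 lower and limma-voom 1, with 4 at an unadjusted p under 0.05. KRT17 changed by -2.63 in PM and -5.03 in PE. Among the p53 targets 1 member differed between the lines, as higher in PM (as lower, edgeR and DESeq2 called 0 and limma-voom 1). In the DNA replication list edgeR, DESeq2 and limma-voom called 0 of 40, with 1 at an unadjusted p under 0.05. In the chemokine list edgeR called 0 of 35, with 7 at an unadjusted p under 0.05, DESeq2 called 2 and limma-voom 3. A p that misses the threshold does not show that the effects were alike.

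**Figure D5:**
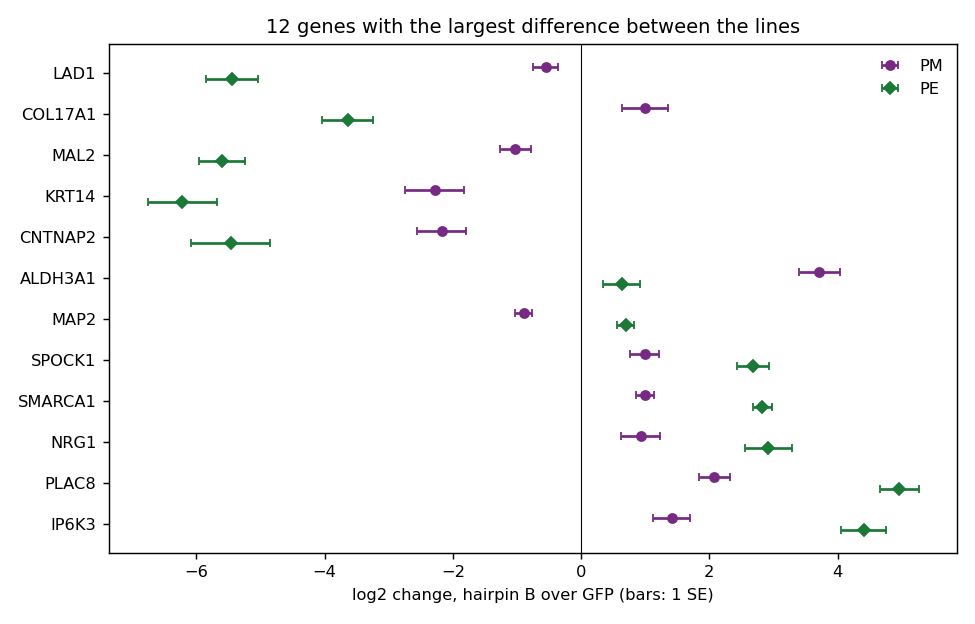
The log2 change (hairpin B over GFP, bars 1 SE) in PM (purple circles, upper) and PE (green diamonds, lower) of the 12 genes with the largest differences between the lines. LAD1 lies at -0.55 in PM and -5.44 in PE, and ALDH3A1 at 3.72 in PM and 0.64 in PE.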

How the data were processed

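Poly(A) RNA of 200000 cells per library was sequenced with a directional kit, per the labels' protocols. Per the submitters' processing notes, the authors used FastQC, Trim Galore 0.4.0, HISAT2 2.2.1, the GRCh38 genome and featureCounts, and deposited raw counts per gene. Annotation release, strand setting and handling of multi-mapping reads: not given in the sources used here. Overlapping, antisense and near-identical genes are therefore uncertain. Of 59251 genes, 17236 had no count; edgeR's filterByExpr kept 20820. Names were matched to GRCh38.p14 (57842 by symbol, 370 by an older one). With edgeR 4.0.16 (R 4.3.3), a model with a mean for each of 6 groups was fitted to the 24 libraries (TMM scaling, robust quasi-likelihood, 18 residual degrees of freedom, median biological coefficient of variation 19.0%). Two-sided p-values were adjusted by Benjamini and Hochberg over all tested genes, with a threshold of 0.05. Each SE was derived from the log2 change and the quasi-likelihood F. The procedure was also run on simulated counts with known changes. These had a common spread for all genes and independent libraries, so that run does not show how the fit performs on these data. Alternatives used DESeq2 1.42.0 and limma 3.58.1.

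The members and the 42 gene lists were chosen with earlier results of these data known. Genes named are CHD1, MYC, the 14 largest rises and falls among called protein-coding genes that averaged at least 5 CPM in either group and did not overlap, up to 4 called members with the largest changes per list, and the 6 largest differences each way between hairpins and between lines. Others, mostly the few list members that moved against the rest, were named after their values were seen. A few genes that these rules name are not reported here. Promoters are RefSeq windows (GRCh38.p14).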

Additional observations from a re-analysis of the deposited data

Results flagged for a closer look

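In each group of 4 libraries, the highest or lowest value of a gene was marked when its gap to the next library was a larger part of the group's whole range than Dixon's 95% limit for 4 values. Chance marks about 1 in 20 groups, and 37 of 380 were marked, 17 of them in GFP libraries. In GFP replicate 1, the library apart from its group was marked for KCNK2 (11.7 CPM) and COL1A1 (6.27 CPM). In GFP replicate 2, the library apart from its group was marked for KIF20A (154 CPM) and NRG1 (3.99 CPM). In GFP replicate 3, the library apart from its group was marked for HES2 (0.458 CPM), ACSL3 (129.9 CPM), ND1 (2255 CPM), COX3 (3200.1 CPM), IFIT1 (1.58 CPM), COL5A1 (0.0990 CPM) and CECR2 (0.0124 CPM). In GFP replicate 4, the library apart from its group was marked for KRT14 (11.0 CPM), PMAIP1 (12.3 CPM), SMARCA1 (2.30 CPM), CA12 (126 CPM), MAP2 (68.4 CPM) and CD24 (10.5 CPM). In hairpin B replicate 1, the library apart from its group was marked for ESPL1 (37.4 CPM) and RPS29 (147 CPM). In hairpin B replicate 2, the library apart from its group was marked for LY6D (3.62 CPM) and CXCL5 (0.127 CPM). In hairpin B replicate 3, the library apart from its group was marked for GFAP (0.310 CPM), CSF1 (132 CPM), SPRY4 (36.7 CPM) and COL5A1 (1.11 CPM). In hairpin B replicate 4, the library apart from its group was marked for IL18R1 (1.94 CPM), TREM1 (41.8 CPM), PMAIP1 (7.55 CPM), H2BC5 (2.46 CPM), ACVR1 (16.1 CPM), DUSP2 (10.1 CPM), NRG4 (8.45 CPM), RPL10 (469.6 CPM), PHB2 (354 CPM), SLC7A5 (755 CPM) and ENO1 (3555 CPM). Replicate 3 of hairpin B was also marked for its 1915 genes with 10 or more counts that had none in the other 3 libraries of its group.

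The effect of hairpin B differed between PM and PE for 30 genes named in the text, by the test of the difference itself (edgeR adjusted p under 0.05). The log2 change in PM minus that in PE was 4.89 for LAD1, 4.64 for COL17A1, 4.58 for MAL2, 3.93 for KRT14, 3.29 for CNTNAP2, 3.08 for ALDH3A1, 2.40 for KRT17, 2.29 for HES2, 1.98 for CLCA2, 1.68 for NOTCH3, 1.51 for ENTPD2, 1.38 for PLAU, 1.32 for PDK4, 1.24 for ELOVL7, 0.69 for ACSL4 and 0.66 for SERPINB1. It was -3.00 for IP6K3, -2.88 for PLAC8, -1.99 for NRG1, -1.83 for SMARCA1, -1.69 for SPOCK1, -1.59 for MAP2, -0.85 for LY6K, -0.71 for SLC7A5, -0.68 for CDH2, -0.53 for HK2, -0.43 for OAS3, -0.41 for TFRC, -0.40 for MYC and -0.37 for FSTL1.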

How the results depend on the processing

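Between hairpin B and GFP in PM, the count of called genes was 5485 to 6868 under the 8 alternatives of scaling, test, filter, block and groups fitted, and 4928 to 5663 (2416 to 2802 higher, 2512 to 2861 lower) when each of the 8 libraries was left out. The share called higher was 48.5%, and 56.8% under library sizes alone. Changes of at least 2-fold numbered 1016 to 1248 with single libraries left out (721 to 962 higher, 255 to 318 lower), and 528 (362 higher, 166 lower) when genes had to reach 5 CPM in 4 libraries, which tests fewer genes. Differences from hairpin A numbered 4608 to 5401 with single libraries left out (2271 to 2621 higher, 2302 to 2793 lower). Differences between PM and PE numbered 419 to 615 with single libraries left out (258 to 346 higher, 150 to 269 lower), 829 (490 higher, 339 lower) without a filter, and 1003 (481 higher, 522 lower) with the replicate number as a block, and DESeq2's Wald test called 472 higher; the causes were not tested. CHD1 changed by -1.69 to -1.50 with single libraries left out. Deviations of same-numbered libraries from their group means correlated over all tested genes by 0.065, 0.130, 0.107 and 0.163, and by 0.164, 0.385, 0.247 and 0.385 over genes with means of at least 5 CPM, each hairpin B library best with the GFP library of its own number in both. Library numbers in the column names also run in blocks by replicate number, but no label calls a block a batch, day or culture. Pairing was judged over all tested genes, where the first value was under 0.1, and so was not assumed, although the stronger genes would pass. With the block 6639 genes were called between hairpin B and GFP. Of 2940 repeats of the single-gene changes, 2826 kept their direction and their side of the threshold and 113 lost the call. The fitted change of GFAP was 0 without hairpin B replicate 3, the only library of both groups with counts of it, and at most 5.44 with another library left out. Depth limits the weakest genes, of which 4731 had means under 0.5 CPM in both groups.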
